A study of Homo sapiens with 8 samples.

Results

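Transcripts of 10 genes that write, read or assemble around methylated lysine 9 of histone H3 (H3K9) were followed in A549, a widely used human cell line from a lung adenocarcinoma. The genes are EHMT1, EHMT2, WIZ, ZNF644, CBX1, CBX3, CBX5, SUV39H1, SETDB1 and TRIM28. They were found by the gene symbol of each probe in the platform annotation of an Illumina HumanRef-8 v3 BeadChip, on which a probe is an oligonucleotide on beads that gives a fluorescence intensity. Of the 10 genes, 8 had a probe under their symbol, 13 probes in all among 22011 probes and 15550 gene symbols. No probe is annotated to WIZ or SUV39H1, so these 2 genes are not analysed here.

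All 8 arrays were of A549 cells carrying a short hairpin RNA (shGLP) against GLP, the product of EHMT1. By the labels, 4 arrays stood for cells before hormone (0 h) and 4 for cells given 100 nM dexamethasone, a synthetic glucocorticoid, for 24 h. Before hormone the cells were kept in phenol red-free medium with charcoal-stripped serum. The sources used here do not state whether 0 h cells received vehicle, whether the line is 1 clone or whether replicates were separate cultures, so p-values measure the spread between these arrays, which may be technical. Cells without this hairpin belong to the study too but are not analysed here, so the depletion of GLP cannot be read from these arrays. With no untreated 24 h arrays analysed, hormone and time in culture cannot be told apart, and in bulk RNA fewer cells of a type and less RNA per cell cannot be told apart.

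GLP and G9a, the product of EHMT2, form a heterodimer that adds 1 or 2 methyl groups to H3K9, and the zinc finger proteins WIZ and ZNF644 bind the dimer and bring it to chromatin. SUV39H1 and SETDB1 carry methylation further, to the trimethyl mark of heterochromatin. The HP1 proteins, encoded by CBX1 (HP1 beta), CBX3 (HP1 gamma) and CBX5 (HP1 alpha), read the methylated lysine through a chromodomain, and TRIM28 is a scaffold that brings SETDB1 and HP1 proteins to sites chosen by zinc finger repressors. GLP and G9a also methylate themselves, which makes a binding site for HP1 gamma, and the kinase Aurora B phosphorylates a neighbouring residue that blocks it. In A549 cells GLP, G9a and HP1 gamma are known as coregulators of the glucocorticoid receptor.

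The promoters of CBX5, the 1 gene whose change passed the test, and of EHMT1 and EHMT2, the hairpin's target and its partner, are shown because these windows hold the annotated start of transcription. Each runs from 250 bases before to 50 bases after the outermost gene start in RefSeq (build GRCh38.p14), 5′ to 3′ on the gene's strand, with matches to the motifs searched in capitals.
CBX5, chr12:54280073-54280372, minus strand: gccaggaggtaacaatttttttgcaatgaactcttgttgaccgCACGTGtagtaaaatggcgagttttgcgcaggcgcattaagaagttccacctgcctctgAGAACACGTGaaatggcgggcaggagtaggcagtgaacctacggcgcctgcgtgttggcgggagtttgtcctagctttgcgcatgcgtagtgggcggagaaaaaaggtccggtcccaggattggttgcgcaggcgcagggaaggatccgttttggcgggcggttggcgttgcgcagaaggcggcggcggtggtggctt
EHMT1, chr9:137618755-137619054, plus strand: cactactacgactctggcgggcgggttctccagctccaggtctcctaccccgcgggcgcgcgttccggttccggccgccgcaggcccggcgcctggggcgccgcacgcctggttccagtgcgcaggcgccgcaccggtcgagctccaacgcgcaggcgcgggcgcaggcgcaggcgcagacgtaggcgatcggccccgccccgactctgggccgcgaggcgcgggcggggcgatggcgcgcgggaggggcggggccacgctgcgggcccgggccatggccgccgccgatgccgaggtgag
EHMT2, chr6:31897649-31897948, minus strand: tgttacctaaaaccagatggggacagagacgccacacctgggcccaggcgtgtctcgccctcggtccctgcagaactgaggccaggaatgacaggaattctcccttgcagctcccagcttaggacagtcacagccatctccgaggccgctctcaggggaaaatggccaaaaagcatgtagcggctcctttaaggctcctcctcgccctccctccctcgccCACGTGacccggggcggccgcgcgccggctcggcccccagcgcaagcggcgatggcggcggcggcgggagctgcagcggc

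Both strands were searched for the palindromic glucocorticoid response element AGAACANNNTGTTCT, its single arm AGAACA, the E2F-type sites GGCGGGAA and TTTGGCGC, the cell cycle element TTTGAA and the E-box CACGTG. The CBX5 window holds 1 AGAACA, at base 103 of 300, and 2 E-boxes, at bases 44 and 107, of which the second overlaps AGAACA by 2 bases. The EHMT2 window holds 1 E-box, at base 221, and the EHMT1 window, with 79.3% G and C, holds none of these letters. Of 27305 RefSeq promoter windows of the same length, 14.8% hold AGAACA and 7.41% an E-box. The full element occurs in 0.00366% of windows and in none of the 9 member genes that have a window in that table. Of these 9, the single arm is in CBX5 and ZNF644, GGCGGGAA is in ZNF644, TTTGGCGC is in CBX3 and an E-box is also in SETDB1. These matches describe the windows and no binding was measured.

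Between 13897 and 14797 of the 22011 probes were detected on an array, meaning a detection p-value (the rank of the probe among the array's negative controls) under 0.05. Median intensity ran from 137 at 0 h replicate 1 to 273 at 0 h replicate 3, and the arrays came on 2 slides, with replicates 1 and 2 on slide 1 and replicates 3 and 4 on slide 2. Of the 13 member probes, 9 were detected on all 8 arrays, and each intensity averages between 22 and 62 beads. A probe was tested where it was detected on at least 4 of 8 arrays, which kept 10 member probes and at least 1 for each of the 8 genes. Levels are log2 intensities after background correction and quantile normalization, a change is the 24 h mean minus the 0 h mean, and levels of different probes are not comparable with each other. All 8 tested genes of the hormone response list were called higher at 24 h (limma adjusted p under 0.05), beside 4.76% of all tested genes. Among them were ZBTB16, a transcription factor, SERPINA3, a protease inhibitor, and TSC22D3, a leucine zipper protein, and the list median change was 1.95. ZBTB16 was detected on 0 arrays at 0 h and PER1 on 1, so both met the filter only through 24 h arrays and their changes have no firm size. FKBP5, TFCP2L1 and SCNN1A of this list had no probe. The list was chosen with earlier results of these data known, so its count is a description and no independent check.

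CBX5, which encodes HP1 alpha, fell after 24 h of dexamethasone and was the 1 member called by limma. The other HP1 genes, CBX1 and CBX3, and also EHMT2 and TRIM28, had lower means at 24 h by 0.29 to 0.44 on the log2 scale, and EHMT1 and ZNF644 had higher means by 0.34 to 0.35, none of which passed. SETDB1 had almost the same mean at both times. Of the 8 genes, 1 was called lower, beside 5.39% of 10964 tested genes, and 0 were called higher, beside 4.76%. Counted in either direction, 1 of 8 was called, beside 10.2% of tested genes. EHMT1 met the detection filter only through its 24 h arrays and is left out of the next counts. At an unadjusted p under 0.05, limma gave 3 of the other 7 (EHMT2, CBX1 and CBX5), beside 22.9% of all tested genes. With the replicate number as a block, limma called CBX5 and CBX1 lower, 2 of the same 7 beside 9.14% of tested genes, and none higher, beside 8.1%. The median change of these 7 genes was -0.30, that of all tested genes -0.01, and 5 of the 7 estimates were negative, beside 51.2% of all.

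**Figure D1:**
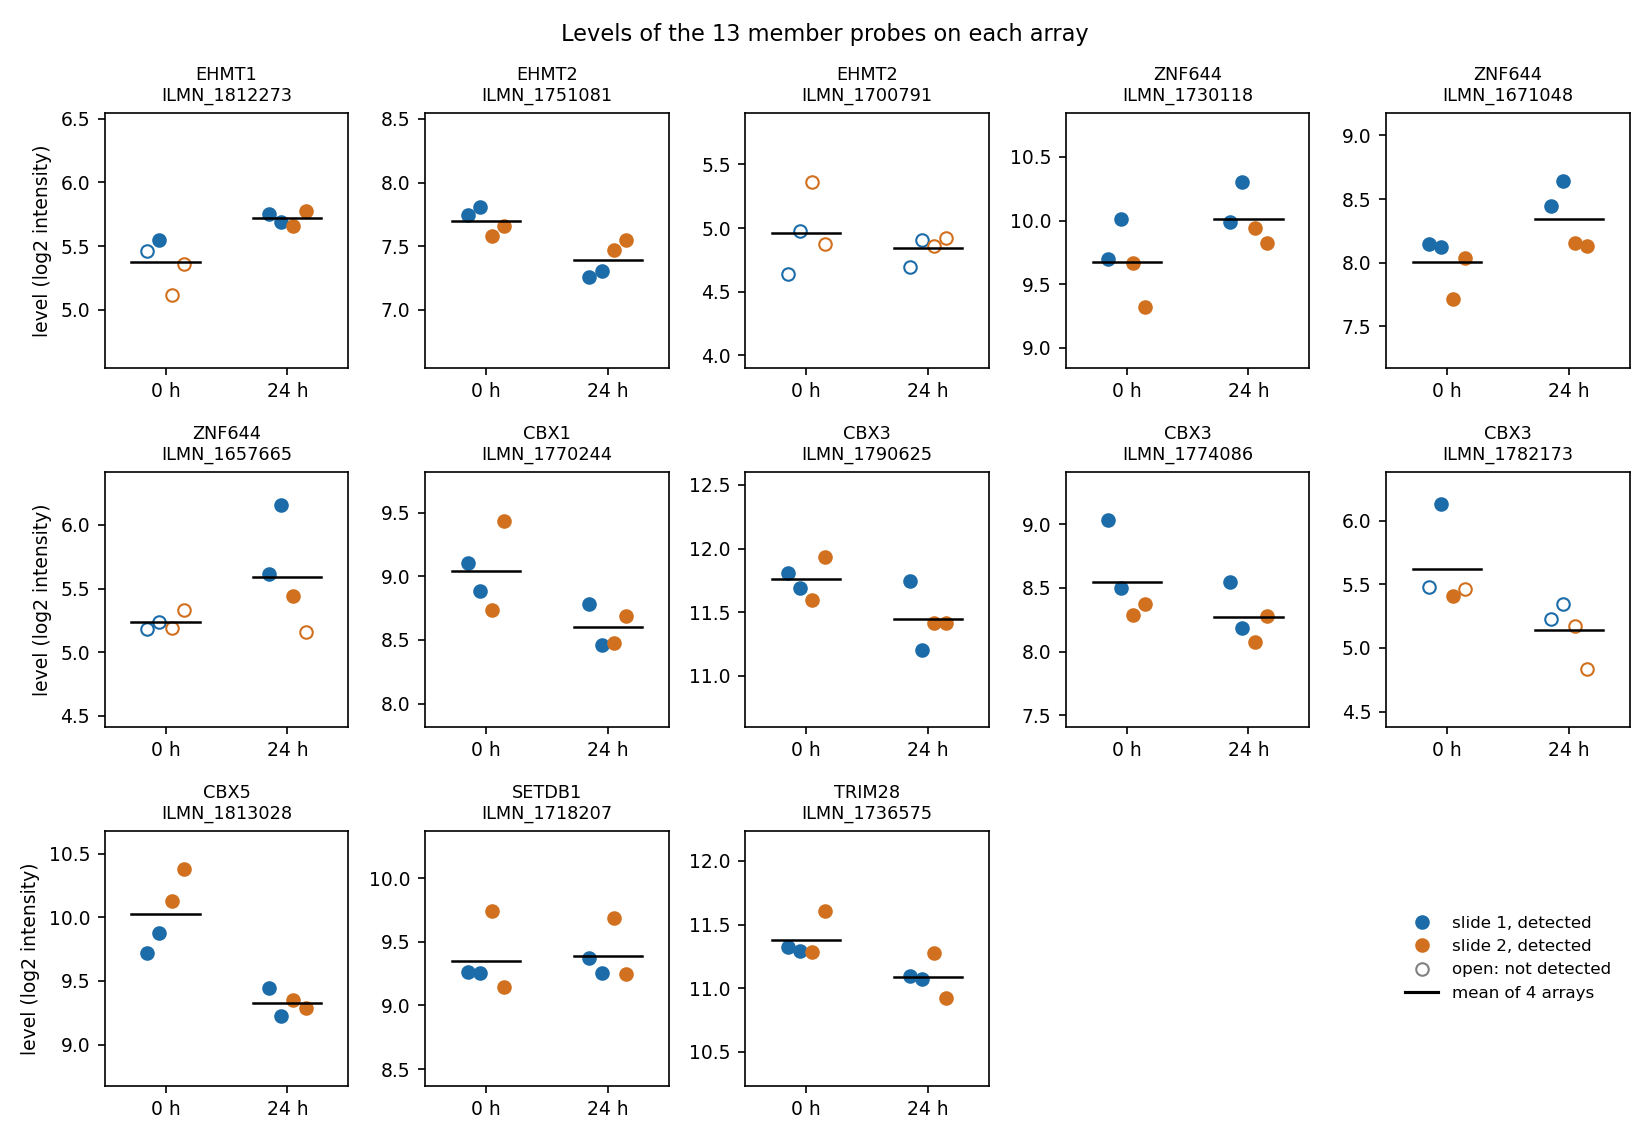
Level (log2 intensity after normalization) of each of the 13 member probes on the 4 arrays at 0 h and the 4 at 24 h, coloured by slide, with open circles where the probe was not detected and a bar at each mean. Every vertical axis spans 2 log2 units. CBX5 separates the times, with 9.72 to 10.38 at 0 h and 9.23 to 9.44 at 24 h, while EHMT1 is mostly open at 0 h.

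EHMT1, the target of the hairpin, has 1 probe (ILMN_1812273), and it lay at the edge of detection. Before normalization it read intensities of 101, 123, 145 and 132 in 0 h replicates 1 to 4, with detection p-values of 0.0781, 0.0368, 0.126 and 0.0733. At 24 h the same replicates read 117, 133, 172 and 146, with detection p-values of 0.0272, 0.00649, 0.0113 and 0.0178. Every replicate was brighter at 24 h than the array of the same number at 0 h. These intensities are not normalized, and the median intensity of the whole array also rose in replicates 1 and 2, from 137 to 159 and from 185 to 201. It fell in replicates 3 and 4, from 273 to 259 and from 210 to 205. The probe passed detection in 0 h replicate 2 alone and in all 4 replicates at 24 h. After normalization the levels did not overlap between the times, which was so for 8.26% of tested genes in this direction. The probe met the detection filter only through the 24 h arrays, and on 3 of the 4 arrays at 0 h its level is a bound. The fitted log2 difference of 0.35, which did not pass (limma adjusted p = 0.135), therefore has no firm size. It was 0.14 without background correction and 0.19 in the authors' normalized values.

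EHMT2, which encodes G9a, has 2 probes. ILMN_1751081 was detected on all 8 arrays, at log2 levels of 7.75, 7.81, 7.58 and 7.66 in 0 h replicates 1 to 4 and 7.26, 7.30, 7.47 and 7.55 at 24 h. All 24 h arrays lay below all 0 h arrays, as they did for 9.1% of tested genes. The change was -0.30 ± 0.12 (SE), with a 95% interval of -0.58 to -0.03, and it did not pass (limma adjusted p = 0.178). It came to -0.50 on slide 1 and -0.11 on slide 2, so the slide 1 arrays carried most of it. The second probe, ILMN_1700791, was detected on none of the 8 arrays, with levels between 4.64 and 5.36, and was not tested.

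GLP and G9a are partners in 1 enzyme, and the EHMT1 probe was compared with the EHMT2 probe on the same array. The log2 level of EHMT1 minus that of EHMT2 was -2.29, -2.26, -2.47 and -2.30 in 0 h replicates 1 to 4, and -1.51, -1.61, -1.82 and -1.77 at 24 h. Only the shift of this difference has a meaning, and it came to 0.65, or to 0.35 without background correction. Since EHMT1 was not above background on 3 of the 4 arrays at 0 h and entered through its 24 h arrays, neither the size of the shift nor the gap between the times is firm. The exact permutation test over the 8 arrays, two-sided, did not pass after Benjamini-Hochberg adjustment over the 4 pairs compared (p = 0.0286, the smallest it can give, and adjusted p = 0.114). A pair that alone reaches the smallest p cannot pass this adjustment, so the test could not decide for this pair by itself. Without 0 h replicate 1 the shift was 0.66 and the adjusted p of the exact test 0.0381, with the same limit. That adjusted p rests on the p of the other pairs too, so it is not stronger evidence for this pair.

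ZNF644, a zinc finger partner of GLP and G9a, has 3 probes, of which 2 were detected on every array. The brighter, ILMN_1730118, read log2 9.70, 10.01, 9.67 and 9.32 in 0 h replicates 1 to 4 and 9.99, 10.30, 9.94 and 9.83 at 24 h. Each 24 h array was higher than the 0 h array of its number, although the groups overlapped. Both probes gave a change of 0.34, with 95% intervals of -0.04 to 0.71 and -0.02 to 0.69 (limma adjusted p = 0.274 and 0.247). With the replicate block the adjusted p was 0.0567 and 0.0786, still short of the threshold. The third probe, ILMN_1657665, passed detection in 3 of 4 replicates at 24 h and in none at 0 h, with levels of 5.16 to 6.16 at 24 h and 5.19 to 5.33 at 0 h, and it was not tested.

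CBX5 has 1 probe, ILMN_1813028, detected on every array. It read log2 9.72, 9.88, 10.13 and 10.38 in 0 h replicates 1 to 4, and 9.44, 9.23, 9.35 and 9.29 at 24 h. The 24 h values lay below every 0 h value, as for 9.1% of tested genes. They lay close together, while the 0 h values spread more (SD 0.29 against 0.09, n = 4 arrays each). The fall was 0.70 ± 0.16 (SE) on the log2 scale, or 1.62-fold, with a 95% interval of -1.05 to -0.35 (limma adjusted p = 0.0174, and 0.0182 with the replicate block). Within slide 1 the change was -0.47 and within slide 2 -0.93, and with 2 arrays at each time neither passed (limma adjusted p = 0.205 and 0.0522). The call was also lost without 24 h replicate 4, where the change was -0.69 (limma adjusted p = 0.0513).

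CBX1, which encodes HP1 beta, read log2 9.10, 8.88, 8.74 and 9.43 in 0 h replicates 1 to 4 on its 1 probe (ILMN_1770244), and 8.78, 8.46, 8.47 and 8.69 at 24 h. Every replicate was lower at 24 h than its 0 h partner, but the groups overlapped at 24 h replicate 1 and 0 h replicate 3. The change was -0.44 ± 0.17 (SE), with a 95% interval of -0.81 to -0.07. It did not pass in the fit without pairs (limma adjusted p = 0.144) and passed with the replicate block (limma adjusted p = 0.0424).

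CBX3, which encodes HP1 gamma, a protein that binds methylated GLP and G9a, has 3 probes. The brightest, ILMN_1790625, read log2 11.81, 11.69, 11.60 and 11.94 in 0 h replicates 1 to 4 and 11.74, 11.21, 11.41 and 11.42 at 24 h. All pairs were lower at 24 h, with 24 h replicate 1 inside the 0 h range. The brightest probe gave a difference of -0.31 (95% interval -0.64 to 0.01, limma adjusted p = 0.243) and the next, ILMN_1774086, one of -0.28 (-0.68 to 0.13, limma adjusted p = 0.431), so neither passed. The dimmest, ILMN_1782173, was above background in 2 of 4 replicates at 0 h and in none at 24 h, with levels of 5.41 to 6.13 and 4.83 to 5.34, and was not tested. RefSeq names 10 pseudogenes after CBX3, 5 after CBX1 and 1 after CBX5, and the part of any such copy in a probe's signal was not tested.

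**Figure D2:**
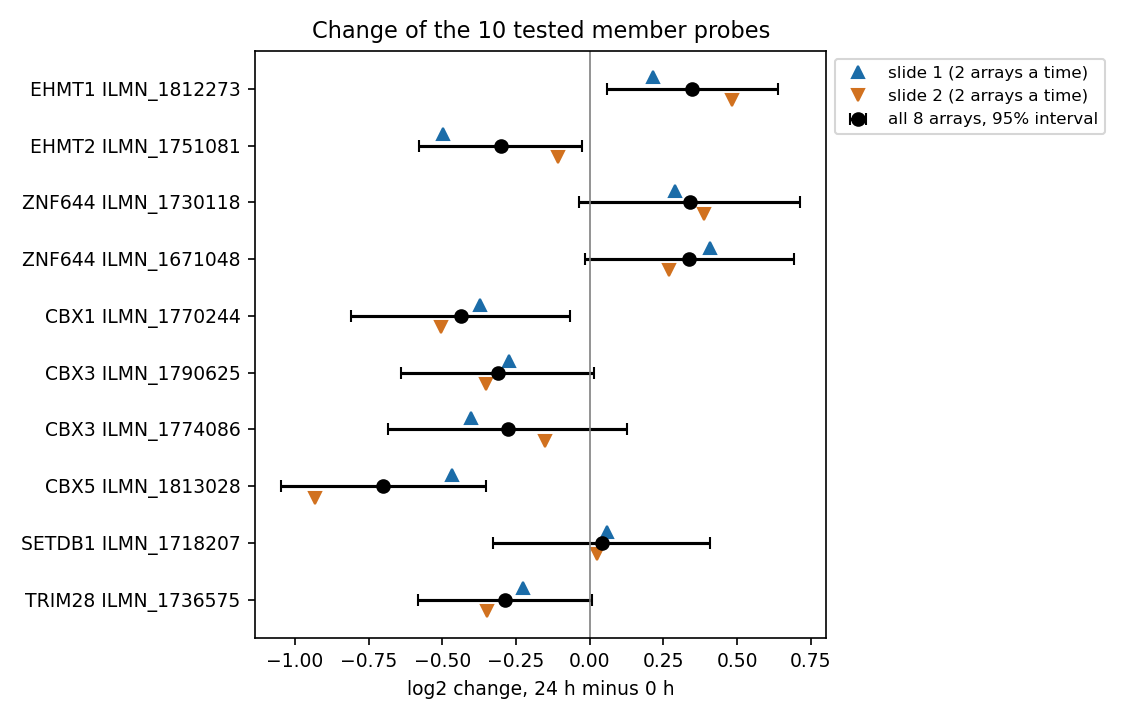
Log2 change (24 h minus 0 h) of the 10 tested member probes, with the 95% interval of the limma fit over 8 arrays (black) and the change within each slide, 2 arrays at each time (coloured triangles). CBX5, at -0.70, is the 1 probe that passed after adjustment, and its slide values are -0.47 and -0.93.

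Whether the HP1 genes differed in their change was asked from differences on the same array, as for the GLP and G9a pair. The shift between the times was -0.39 for CBX5 minus CBX3, -0.26 for CBX5 minus CBX1 and -0.13 for CBX1 minus CBX3. None passed (exact permutation p = 0.0857, 0.171 and 0.257, and adjusted p = 0.171, 0.229 and 0.257), and the times overlapped in all 3. Between arrays of the same number, CBX5 minus CBX3 was lower at 24 h in 4 of 4 pairs, with differences of -0.22, -0.17, -0.59 and -0.57. CBX5 minus CBX1 was lower in 3 of 4 pairs and CBX1 minus CBX3 in 3 of 4. An exact sign-flip test over 4 pairs cannot give a p under 0.125, the value it gave for CBX5 minus CBX3. Without 0 h replicate 1, the array with the lowest median intensity, the shifts were -0.51 for CBX5 minus CBX3 and -0.38 for CBX5 minus CBX1, each with an adjusted p of 0.0381 in the exact test. These 2 shifts passed or did not pass according to whether that array was included. Each adjusted p also rests on the p of the other pairs, among them EHMT1 minus EHMT2, with EHMT1 near background at 0 h. With the dimmer tested CBX3 probe the shift of CBX5 minus CBX3 was -0.42.

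**Figure D3:**
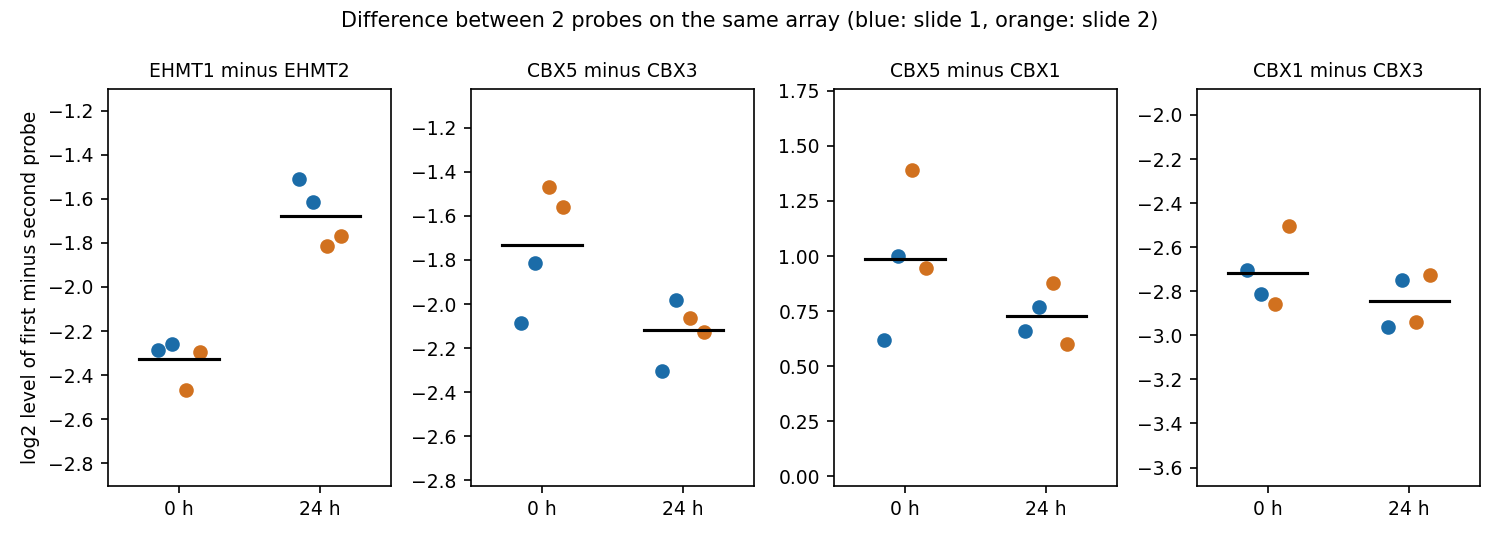
Difference in log2 level between 2 probes on the same array, at 0 h and 24 h, with a bar at the mean of 4 arrays (blue, slide 1; orange, slide 2). Every vertical axis spans the same range, and its position has no meaning because the probes differ. The 3 HP1 pairs overlap between the times, and EHMT1 minus EHMT2 does not, with EHMT1 near background at 0 h.

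SETDB1, the methyltransferase brought in by TRIM28, read log2 9.26, 9.25, 9.74 and 9.14 in 0 h replicates 1 to 4 and 9.37, 9.26, 9.69 and 9.25 at 24 h. Replicate 3 was the highest at both times, so the spread between replicates exceeded any shift with time. The change was 0.04, with a 95% interval of -0.33 to 0.41 (limma adjusted p = 0.922), and its sign turned to -0.03 without 0 h replicate 4 and to -0.058 without 24 h replicate 3. This interval, from the fit without pairs, leaves room for a change of the size seen in CBX3. With the replicate block the change was 0.04 ± 0.09 (SE) (limma adjusted p = 0.80), a smaller SE than the 0.17 without it.

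TRIM28 read log2 11.33, 11.29, 11.29 and 11.61 in 0 h replicates 1 to 4 and 11.09, 11.07, 11.28 and 10.92 at 24 h on its 1 probe (ILMN_1736575). All 24 h arrays lay below all 0 h arrays, as for 9.1% of tested genes, though 24 h replicate 3 by only a little. The change was -0.29 ± 0.13 (SE), with a 95% interval of -0.58 to 0.01, and did not pass (limma adjusted p = 0.237, or 0.184 with the replicate block).

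Of 11 listed H3K9 demethylases, 8 were tested, and limma called 0 higher and 0 lower, beside 10.2% of all tested genes in either direction. At an unadjusted p under 0.05 limma gave 0 of the 8, beside 22.9% of all tested genes. The median change of the 8 was 0.02. KDM1A, a demethylase of the CoREST complex, gave -0.14 (95% interval -0.40 to 0.11), and KDM3A, which removes the mono- and dimethyl marks, gave 0.13 (-0.44 to 0.69). Intervals were wider for some, and that of KDM4A, a trimethyl demethylase, ran from -0.49 to 0.78. KDM4A was detected on 2 arrays at each time, and KDM4B on 2 at 0 h and 3 at 24 h.

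Among 16 tested genes of other H3K9 methyltransferases, the HUSH silencing complex and heterochromatin proteins, limma called 2 lower, beside 5.39% of all tested genes, and 0 higher, beside 4.76%, and the list's median change was -0.05. Both called genes encode subunits of chromatin assembly factor 1, which loads histones behind the replication fork and whose large subunit binds HP1. CHAF1B averaged log2 9.50 ± 0.42 at 0 h and 7.87 ± 0.38 at 24 h (SD, n = 4), a change of -1.63 ± 0.24 (SE) (limma adjusted p = 0.00193). CHAF1A, detected on 3 of 4 arrays at 24 h, averaged 7.81 ± 0.29 at 0 h and 5.87 ± 0.68 at 24 h (SD, n = 4), a change of -1.94 ± 0.30 (SE) (limma adjusted p = 0.00253). Neither gene's arrays overlapped between the times, which was so for 9.1% of tested genes in this direction. Without background correction the CHAF1A change was -1.10, and within slides 1 and 2 its call was lost (limma adjusted p = 0.081 and 0.0597). The other 14 genes had differences between -0.45 (ATF7IP, a cofactor of SETDB1, 95% interval -1.24 to 0.34) and 0.47 (LRIF1, an HP1-binding protein, -0.05 to 0.99), and none passed. ATF7IP was detected on 4 arrays at 0 h and 2 at 24 h, and LRIF1 on 2 and 4. Both lay near background, so neither size is firm.

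Of 13 tested binding partners and regulators of GLP and G9a, limma called 1 lower, beside 5.39% of all tested genes, and 0 higher, beside 4.76%, with a list median of -0.11. The called gene was AURKB, which encodes Aurora B, and it averaged log2 12.13 ± 0.32 at 0 h and 10.73 ± 0.33 at 24 h (SD, n = 4; limma adjusted p = 0.00182). Its change was -0.96 on slide 1 and -1.82 on slide 2. NR3C1, the glucocorticoid receptor itself, read 9.09 to 9.54 at 0 h and 9.02 to 9.48 at 24 h on its brightest tested probe (ILMN_2389347), which overlap almost fully. The gene has 1 other tested probe, which is not described here. The change of ILMN_2389347 was -0.06 with a 95% interval of -0.43 to 0.30 (limma adjusted p = 0.877).

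AURKB is also 1 of the 28 tested genes of the cell cycle list. Limma called 25 of the 28 lower, beside 5.39% of all tested genes, and 0 higher, beside 4.76%. The list median, -1.19 over all 8 arrays, came to -0.89 within slide 1 and to -1.59 within slide 2. The 3 genes with the smallest p in that list were CENPE, a mitotic motor, at -1.22, EXO1, a repair exonuclease, at -2.003, and MCM7, a helicase subunit, at -1.33. The summed intensity of the list's 30 genes on the array ran from 109310 to 138969 at 0 h. At 24 h this sum ran from 41123 to 65485, with no overlap. Of single tested genes, 9.1% had no overlap in this direction. CBX5, CHAF1B and AURKB, the last from that list, changed more on slide 2 than on slide 1, as the cell cycle list did. CHAF1A changed by -1.95 and -1.93. The brightest probes of CBX1, CBX3 and TRIM28, which were not called, also fell more on slide 2. They gave -0.37, -0.27 and -0.23 on slide 1 and -0.50, -0.35 and -0.35 on slide 2, while EHMT2 fell more on slide 1. The part of cell cycle state in the changes of CBX5 and the 2 CHAF1 genes was not tested.

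**Figure D4:**
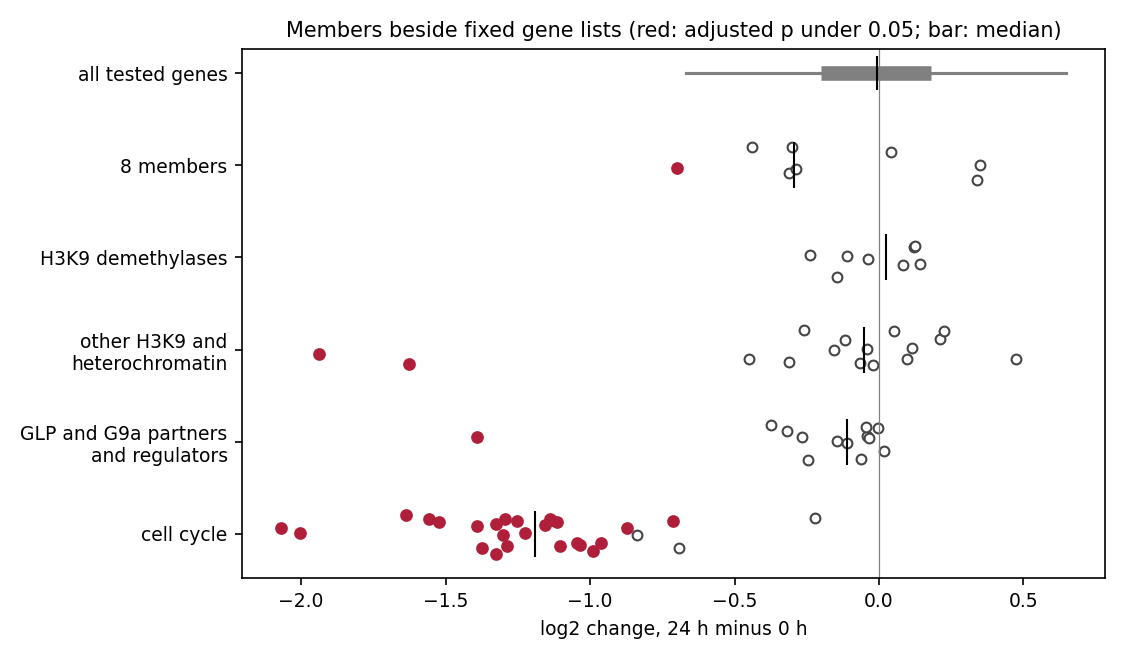
Log2 change (24 h minus 0 h) of the 8 members and of each tested gene in 4 fixed lists, with genes that passed the limma threshold in red, others open, and a bar at each median. The top line gives all 10964 tested genes, with the median, the 25th to 75th percentile (thick) and the 5th to 95th (thin). The medians are -0.29 for the members, 0.02, -0.05 and -0.11 for the chromatin lists and -1.19 for the cell cycle list.

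The tested genes most like each member over the 8 arrays were found by the root mean square difference of log2 levels after centring each gene on its own mean. For CBX5 they were DUT, which clears dUTP, at 0.0971, SRRT, an RNA cap-binding cofactor, at 0.106 and TEX10, a ribosome assembly factor, at 0.106, where the median over all tested genes was 0.459. All 3 were called lower, with changes of -0.76, -0.56 and -0.68 (limma adjusted p = 0.00868, 0.0373 and 0.0103). They were picked for likeness to CBX5 on these same arrays, so a similar fall was built into the choice. For EHMT2 the nearest were EVA1C, TNFRSF10B, a death receptor, and HDAC1, a histone deacetylase that joins repressor complexes, at 0.0634 to 0.0752. HDAC1 was also on the list of binding partners and gave -0.32 (limma adjusted p = 0.144). For EHMT1 they were ATG10, UGGT2 and KGD4, at 0.0522 to 0.0765. With few arrays and many genes such small differences are a description only.

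As a check of the labelled cells, all 9 A549 markers on the array passed the detection filter. Limma called 4 of them higher (CPS1, KRT8, CDH1 and KRT18), beside 4.76% of all tested genes, and 0 lower, beside 5.39%. The KRT18 call was lost in 9 of 21 alternatives (limma adjusted p up to 0.206), and with the replicate block KRT19 was called lower (limma adjusted p = 0.0338). Of the markers of other cell types, COL1A2, COL3A1 and PDGFRB (fibroblasts), PTPRC and CD3E (leukocytes) and VWF, CDH5 and TEK (endothelium) were detected on no array. LUM, also a fibroblast marker, was detected on some arrays but fewer than the 4 needed, and was not tested. CD14, CD68, PECAM1 and COL1A1 were detected on all 8 arrays, KDR on 3 of 4 at 0 h and all at 24 h, and DCN on none at 0 h and 4 of 4 at 24 h. The part of other cells in the results was not tested. The summed intensity of the 6 fibroblast markers on the array ran from 226 to 456 at 0 h and from 270.5 to 444 at 24 h, that of 4 leukocyte markers from 527 to 673 and from 337 to 568, and that of 5 endothelial markers from 249 to 274 and from 220.3 to 288. These sums overlapped between the times. DCN, a matrix proteoglycan among the fibroblast markers, was called higher, against a 0 h level not above background, and COL1A1, a collagen chain, lower. The COL1A1 call was lost in 9 of 21 alternatives, among them 7 that leave out 1 array (limma adjusted p up to 0.421 over all 21). No other marker of those 3 types was called.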

How the data were processed

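RNA of 8 arrays was analysed, 4 at each time. Per the file headers, the deposited table holds, for 25204 rows and each array, a linear mean intensity without normalization, a bead number and a detection p-value. The authors' table gives normalized log2 values for 22011 of these probes; the submitters' processing notes name limma, with its steps and the scanner software not given in the sources used here.

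Intensities were background-corrected with nec (limma 3.58.1, R 4.3.3; offset 16, background from the detection p-values), and the 22011 probes were then quantile normalized as log2 values. The 14533 probes with detection p under 0.05 on at least 4 of 8 arrays were tested with lmFit and eBayes, two-sided, with Benjamini-Hochberg adjustment over all tested probes, at 0.05. Each of 10964 genes was counted once, by its brightest tested probe. Of the 22011 probes, 19759 have 1 gene symbol, 0 several and 2252 none; symbols were updated through Entrez identifiers in RefSeq. The fits were tested on simulated data.

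Replicate numbers from the titles pair the arrays: deviations from the group means correlated at 0.367 to 0.465 across probes for every same-numbered pair and at no more than 0.188 otherwise. The members and lists were chosen with earlier results of these data known. Named are all members, called list genes up to 5 (otherwise the 3 with the smallest p), NR3C1, AURKB and the 3 genes most like EHMT1, EHMT2 and CBX5; other list genes were chosen after their values were seen. Alternatives covered background, normalization, filter, variance model, blocks, slides and each array left out. The number of arrays limits the precision.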

Additional observations from a re-analysis of the deposited data

Results flagged for a closer look

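In 26 groups of 4 arrays (13 probes at 2 times), 2 held an array far from the other 3 by Dixon's test, where chance flags about 1 in 20. TRIM28 (ILMN_1736575) read log2 11.61 in 0 h replicate 4, against 11.29 to 11.33 in the others, and without that array its change was -0.21 in place of -0.29. The dimmest CBX3 probe (ILMN_1782173), not tested, read 6.13 in 0 h replicate 2, against 5.41 to 5.48 in the others.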

How the results depend on the processing

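CBX5 kept its direction in all 21 alternatives and its call in 18, ending within slide 1, within slide 2 and without 24 h replicate 4. The count of members called lower, 1, became 2 with the replicate block, 0 within slide 1, 0 within slide 2, and 0 to 1 with an array left out, while 0 were called higher throughout. Genes called higher, 522 in all, numbered 888 with the block and 241 and 220 within slides 1 and 2, and 357 to 492 with an array left out. Genes called lower, 591, numbered 1002 with the block, 261 and 196 within the slides, and 413 to 540 with an array left out. The block changed 1 other call among the members, that of CBX1. Leaving out 1 array gave shifts of 0.59 to 0.70 for EHMT1 minus EHMT2 and -0.51 to -0.30 for CBX5 minus CBX3. The ranges were -0.38 to -0.13 for CBX5 minus CBX1 and -0.17 to -0.05 for CBX1 minus CBX3. The adjusted p of the first 3 fell under 0.05 only without 0 h replicate 1. EHMT1 met the detection filter only through its 24 h arrays, so the test cannot decide for its pair. The p of that pair also enters the adjustment of the HP1 pairs. Leaving out 1 array also turned the sign of SETDB1 (-0.058 to 0.17) and NR3C1 (-0.14 to 0.016), neither of them called. The cause of these differences was not tested. A sign-flip test over same-numbered arrays, chosen after seeing the data, called no pair difference. Pair differences were not run within slides or under other filters. EHMT1 had no value where detection on all 8 arrays or a detection p under 0.01 was required, since its signal lay near background.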
